A study of Mus musculus with 2 samples.

Results

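Among cultured mouse haematopoietic stem cells, 194 of 18560 cells carried transcripts of at least 2 of the 3 granule genes Mpo, Elane and Ctsg. The members were chosen by those 3 measured values alone: a cell entered when the deposited value was above 0 for 2 or more of the genes, and the 18366 remaining cells formed the comparison. The levels of Mpo, Elane and Ctsg in the set are therefore given as a description. The vehicle library held 98 members among 8708 cells and the DFO library 96 among 9852.

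Haematopoietic stem cells had been sorted as Lin-, Sca-1+, c-Kit+, CD150+ and CD48- from 8 pooled C57/B6 mice of 6 to 8 weeks of age, for which the labels name no engineered allele. Both groups were kept for 48 h with stem cell factor (SCF, 100 ng/ml) and a second cytokine. One group received vehicle (sterile water) and the other 10 µM DFO, deferoxamine, an iron chelator. Each group was 1 droplet 3′ RNA library from pooled animals, so no difference between the groups has a replicate check, and all intervals below are exact 95% intervals that cover counting error only.

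Mpo, Elane and Ctsg encode myeloperoxidase, neutrophil elastase and cathepsin G. These proteins are made early in granulocyte and monocyte development and are stored in the primary (azurophilic) granules. Progenitors that commit to this branch are known to express the transcription factor C/EBPα, which acts with PU.1, and to lose transcripts of stem cells and of the megakaryocyte and erythroid branches. Later stages stop making the primary granule transcripts and make those of secondary granules.

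The stretches upstream of 4 granule genes are shown because 3 of the genes chose the set and Prtn3, which encodes the related protease proteinase 3, was read against it. They come from RefSeq on build GRCm38.p6, run 5′ to 3′ on the strand of the gene, begin 250 bases before the RefSeq start and stop where an annotated GENCODE exon begins. Capitals mark AGGAAGT, a core of the kind that PU.1 binds, searched on both strands. The Mpo stretch lies at chr11:87793534-87793580 (+ strand), that of Elane at chr10:79886062-79886246 (+ strand), that of Ctsg at chr14:56102575-56102824 (- strand) and that of Prtn3 at chr10:79879417-79879613 (+ strand).
Mpo: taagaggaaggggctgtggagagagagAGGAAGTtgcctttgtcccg
Elane: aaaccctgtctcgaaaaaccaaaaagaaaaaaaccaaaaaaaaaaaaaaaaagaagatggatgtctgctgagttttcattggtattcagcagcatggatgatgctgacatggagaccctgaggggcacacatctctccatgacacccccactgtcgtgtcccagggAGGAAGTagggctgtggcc
Ctsg: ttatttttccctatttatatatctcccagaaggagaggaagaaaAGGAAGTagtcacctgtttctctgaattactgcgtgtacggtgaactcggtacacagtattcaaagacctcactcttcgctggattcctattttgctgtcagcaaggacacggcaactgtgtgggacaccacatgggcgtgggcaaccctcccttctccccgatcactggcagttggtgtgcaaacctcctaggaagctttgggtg
Prtn3: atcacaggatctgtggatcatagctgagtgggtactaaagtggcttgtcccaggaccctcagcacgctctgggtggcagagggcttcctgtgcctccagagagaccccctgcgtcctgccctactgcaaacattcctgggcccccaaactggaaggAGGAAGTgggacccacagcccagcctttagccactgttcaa
The first base of the motif lay 223 bases before the start in Mpo, 84 in Elane, 206 in Ctsg and 94 in Prtn3. The same letters stood in 7.686% of 32851 mouse upstream windows of 250 bases. A second motif, TTGCGCAA, a palindrome of the kind that C/EBP proteins bind, was in 0.1644% of the windows and in none of these 4. The window of the marker Ms4a3 held neither motif, and that of Clec12a, whose bases are exonic and are not printed, held TTGCGCAA. These matches describe letters and no bound site.

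Detection of the 3 genes was uneven within the set. Mpo had a molecule in 95 of the 98 vehicle members and 91 of the 96 DFO members, Ctsg in 96 and 89, and Elane in 20 and 24. Most members entered on Mpo and Ctsg without Elane (78 vehicle and 72 DFO cells), and 15 and 12 cells had all 3 genes. Mpo with Elane accounted for 2 and 7 members and Elane with Ctsg for 3 and 5. The set was mainly a population with Mpo and Ctsg.

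Outside the set, 352 vehicle and 388 DFO cells had 1 of the 3 genes, and 8258 and 9368 had none. Just inside the threshold, 9 vehicle and 16 DFO members had a single molecule of each of 2 genes. Just outside it, 229 and 254 cells had a single molecule of 1 gene. A further 123 and 134 cells had 2 or more molecules of 1 gene, up to 57 in a vehicle cell and 24 in a DFO cell, so cells with a clear signal of 1 gene lay outside. The members held 81.41% of the Mpo molecules of the vehicle library and 70.06% of those of the DFO library.

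**Figure D1:**
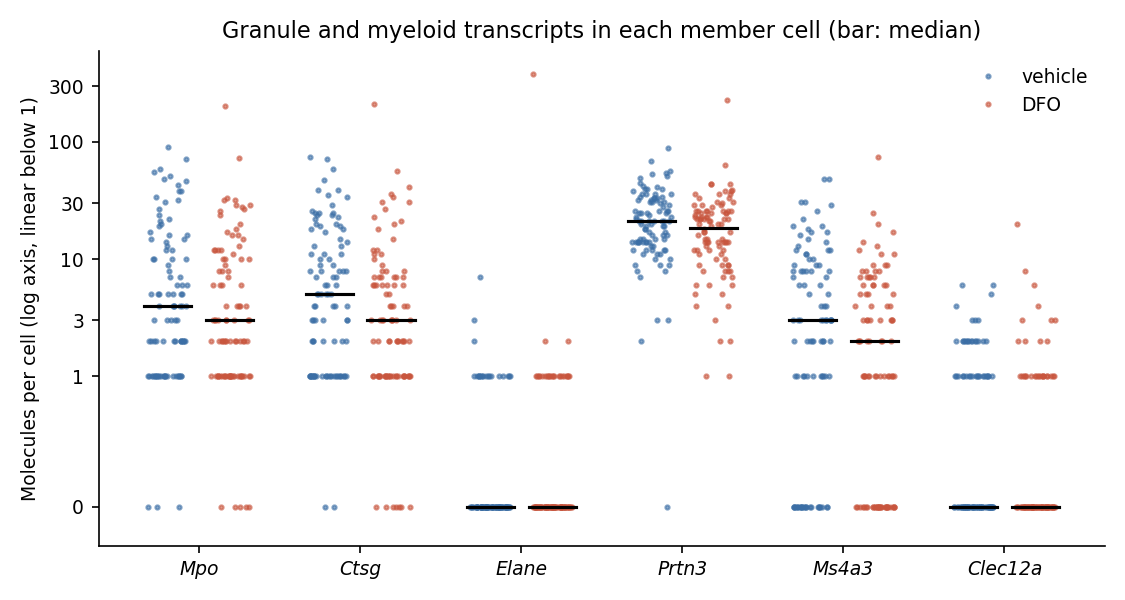
Molecules per cell (log axis, linear below 1) of 6 granule and myeloid genes in the 98 vehicle and 96 DFO members, 1 point a cell, bars at the median. Mpo, Ctsg and Elane chose the cells. Prtn3 was in nearly every member, Elane was at 0 in most, and 1 DFO cell held 379 Elane molecules.

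The amount of granule transcript varied widely among members. The median member had 11 summed molecules of the 3 genes in the vehicle library and 8 in the DFO library. By this sum the vehicle members were 27 cells with 2 to 4 molecules, 32 with 5 to 19, 36 with 20 to 99 and 3 with 100 or more. The DFO members were 34, 45, 15 and 2 cells in the same classes, fewer in the class of 20 to 99 and more in the classes below it. The 2 DFO cells at 100 or more carried 41.93% of their set's molecules of the 3 genes, and the 3 vehicle cells 18.99%.

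The set was 1.125% of the vehicle library (Clopper-Pearson interval 0.9146 to 1.37) and 0.9744% of the DFO library (0.79 to 1.189), and the intervals overlapped. Members were deeper than other cells, with medians of 31252.5 against 27782.5 molecules (unique molecular identifiers, UMIs) in the vehicle library and 29014 against 27107 in the DFO library. With every cell thinned to 10000 molecules and the rule applied again, 61 of 8357 cells (0.7299%, 0.5588 to 0.9366) qualified after vehicle and 45 of 9419 (0.4778%, 0.3487 to 0.6388) after DFO, with 351 and 433 shallower cells left out. These intervals overlapped as well. Over all cells the DFO share was the lower of the 2 by each count, and with 1 library a group the difference has no replicate check.

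Cells with megakaryocyte transcripts, which should lack the granule genes, served as a reference for stray RNA. They were defined by a molecule of at least 3 of Treml1, Gp9, Clec1b and Ppbp. Among them 1 of 604 in the vehicle library (0.1656%, 0.004192 to 0.919) and 1 of 194 in the DFO library (0.5155%, 0.01305 to 2.838) met the rule, at median depths of 44344.5 and 41595 UMIs. The set's 1.125% lay above the vehicle reference interval, while the DFO reference interval contained the set's 0.9744%. With 1 cell in each library the reference itself is poorly measured. The vehicle cell held 34 summed molecules of the 3 genes and 346 of the platelet gene Pf4, at 83552 UMIs. The DFO cell held 15 and 394, at 63737 UMIs. At these amounts the 2 cells do not measure a level of stray RNA.

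A limit of 20 or more summed molecules, chosen after the values were seen, was met by 39 vehicle members (0.4479% of cells, 0.3187 to 0.6117) and 17 DFO members (0.1726%, 0.1006 to 0.2761), and these intervals did not overlap. With cells thinned and the limit at 5 molecules, the shares were 0.5145% (0.3726 to 0.6925) and 0.3397% (0.2325 to 0.4793), and the intervals overlapped. The DFO share was the lower of the 2 in each setting.

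The share of members also differed with the sex of the cells, which the labels do not give. Cells were called female with at least 5 Xist molecules and none of 4 Y-linked genes, and male with at most 1 Xist and at least 2 Y-linked molecules. In the vehicle library 72 of 4751 female cells (1.515%, 1.188 to 1.905) and 10 of 2767 male cells (0.3614%, 0.1734 to 0.6636) were members. In the DFO library the values were 60 of 5251 (1.143%, 0.8731 to 1.468) and 16 of 3266 (0.4899%, 0.2803 to 0.7943). The female share was the higher in both libraries, without overlap of the intervals.

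Median depths of female and male cells were 27969 and 28077 UMIs in the vehicle library and 26873 and 27501 in the DFO library. After thinning, the female and male shares were 1.02% (0.75 to 1.353) and 0.1831% (0.05947 to 0.4267) in the vehicle library. In the DFO library they were 0.63% (0.4313 to 0.8883) and 0.3103% (0.1489 to 0.5699), where the intervals overlapped. With and without thinning, the DFO share was the lower among female cells and the higher among male cells, within overlapping intervals. Sex and individual mouse cannot be told apart in a pool. Of the members with 20 or more summed molecules, 32 vehicle and 13 DFO cells were female and 3 and 3 were male.

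**Figure D2:**
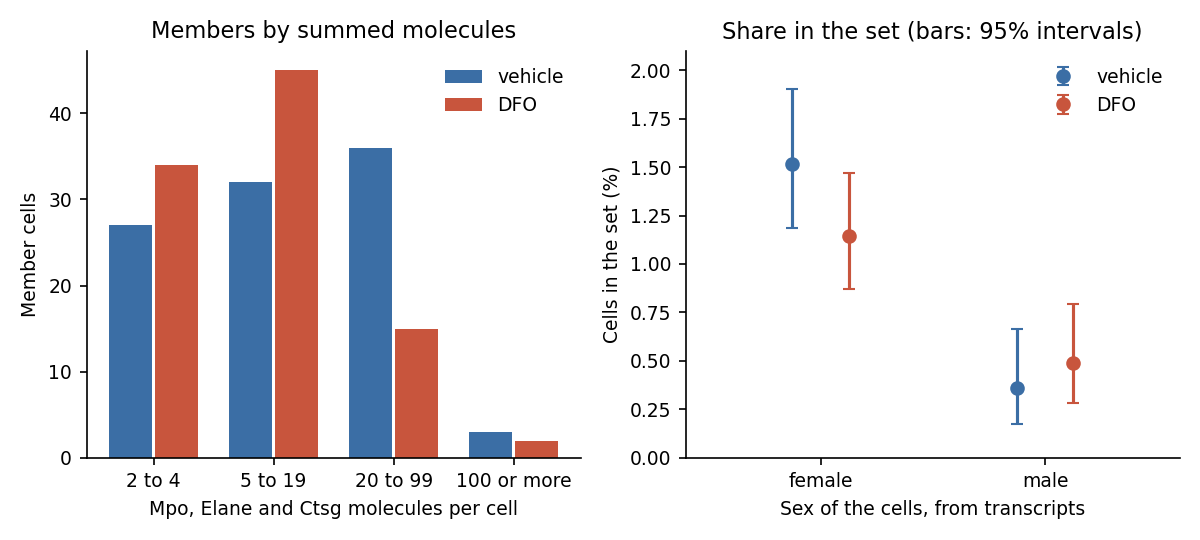
Left, number of member cells (bars) by summed Mpo, Elane and Ctsg molecules in each library. Right, percent of female and of male cells that were members, with 95% Clopper-Pearson intervals. The female shares of 1.515% (vehicle) and 1.143% (DFO) lie above the male shares of 0.3614% and 0.4899%.

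Genes that the rule did not use were compared between the set and all other cells of the same library, as summed molecules scaled to counts per 1000000 molecules of the cells summed (CPM) and as log2 differences after adding 1 CPM. Of 7736 genes at 10 CPM or more, 65 (0.84%) were at least 2-fold higher in the set in both libraries and 83 (1.07%) at least 2-fold lower. The median difference over all these genes was -0.06 in the vehicle library and -0.03 in the DFO library. In the accounts of gene lists below, a gene is called higher or lower when it passed 2-fold in both libraries, out of the listed genes at 5 CPM or more in the set or the other cells of a library. Over all 9239 genes at that minimum, 0.866% were higher and 1.29% lower by this rule.

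Of 12 primary granule genes 5 were higher and none lower, with a median log2 difference of 0.79 in the vehicle library and 0.88 in the DFO library. Prtn3 stood at 736.9 CPM in vehicle members and 156.1 CPM in other vehicle cells, and at 642.1 and 145.3 CPM in the DFO library. Elane begins 3072 bases beyond the end of Prtn3 on chromosome 10, and the pair was detected very differently. Elane was in 0.5053% of all vehicle cells and 0.6801% of all DFO cells, while Prtn3 was in 84.74% and 82.68% of the cells outside the set. Prtn3 was a broad transcript of these cultures with a higher level in the set, and Elane a rare one.

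The other higher granule genes were Plac8 (log2 difference 2.17 in the vehicle and 1.99 in the DFO library), Ap3s1 (1.95 and 1.53), which encodes a subunit of a vesicle adaptor complex, Igsf6 (1.68 and 2.38) and Slpi (2.92 and 2.78). Slpi encodes an inhibitor of elastase and cathepsin G and was in 18.37% and 10.42% of members. In the DFO set 1 cell held 10 molecules each of Igsf6 and Slpi, and the other members stood at 2.83 and 4.72 CPM. Lyz2, which encodes lysozyme, did not separate the set, with differences of -0.19 and 0.08. Of 14 listed late granule genes 2 were measured and the other 12 were not analysed here. Anxa1 differed by -0.01 and 0.10, and S100a8 was in 1 of the 194 members.

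Of 5 subunits of the phagocyte NADPH oxidase, which makes superoxide, 2 were higher. Ncf1 differed by 1.15 and 1.01 and Ncf4 by 1.10 and 1.43, both cytosolic subunits. The membrane subunit Cyba differed by 0.01 and -0.03.

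Of 11 myeloid transcription factors only Cebpa was higher. Cebpa, which encodes C/EBPα, was at 75.7 CPM (66.4 to 85.9) in vehicle members and 7.23 CPM in other vehicle cells, and at 45.9 (38.8 to 53.9) and 6.51 CPM in the DFO library. It was detected in 80 of 98 and 67 of 96 members and in 15.06% and 13.54% of other cells. Spi1, which encodes PU.1, differed by 0.66 and 0.67 and was already in 89.57% and 89.62% of other cells. Irf8, a factor of monocytes and dendritic cells, differed by 1.18 and 0.57, and Gata2, a factor of stem and mast cells, by -1.04 and -0.73.

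Of 20 receptors and other membrane molecules 7 were higher and none lower. Ms4a3, a marker of granulocyte-monocyte progenitors, stood at 205.7 CPM (190.2 to 222.1) in vehicle members and 17.6 CPM in other vehicle cells, and at 128.6 (116.5 to 141.7) and 13.8 CPM in the DFO library. Clec12a, an inhibitory lectin receptor, was at 24.6 and 1.59 CPM in the vehicle library and at 23.1 and 1.636 CPM in the DFO library. Both markers were higher in the set, yet neither was in every member. Ms4a3 was in 73 vehicle and 65 DFO members and Clec12a in 41 and 30.

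Csf3r, the receptor of granulocyte colony-stimulating factor, differed by 2.11 and 2.17. The antibody receptors Fcgr2b (2.55 and 1.99) and Fcgr3 (1.89 and 1.70) and the surface protein Cd52 (1.81 and 1.42) were higher too. Flt3, a cytokine receptor of multipotent progenitors, passed 2-fold in the vehicle library (1.21) and not in the DFO library (0.73). Cd34, a progenitor surface protein, was in 100% of vehicle and 98.96% of DFO members but did not pass 2-fold in both libraries. Members thus held progenitor and myeloid receptor transcripts side by side. Cd48, whose protein the sort had gated against before culture, was in 91.84% and 87.5% of members and 64.08% and 64.2% of other cells. Outside the set, 3310 vehicle and 3947 DFO cells had both Cd48 and Cd27, surface genes of multipotent progenitors, and of these 4.834% and 3.268% had Ccr2, the chemokine receptor of inflammatory monocytes, against 60.2% and 36.46% of members.

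The monocyte and dendritic list had 2 of 7 genes higher and none lower. Ccr2 was at 80.1 CPM (70.6 to 90.6) in vehicle members and 2.02 CPM in other vehicle cells, and at 35.6 (29.4 to 42.8) and 1.16 CPM in the DFO library. It was in 59 and 35 members, and in 2.869% and 2.05% of other cells. F13a1, a coagulation factor subunit made by monocytes, differed by 2.20 and 2.88. Csf1r, Cx3cr1, Klf4, Ctss and Fcgr1 were measured but stood below 5 CPM.

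The largest mean difference of all genes was that of Mcpt8, a protease known from basophils. Mcpt8 was at 52.4 CPM (44.7 to 61.0) in vehicle members and 0.45 CPM in other vehicle cells, and at 34.0 (27.9 to 41.0) and 0.37 CPM in the DFO library. All 3 genes of the mast and basophil list at 5 CPM or more were higher, the others being Hdc (histidine decarboxylase, 1.85 and 2.68) and Cpa3 (carboxypeptidase A3, 1.95 and 2.32). At least 1 of these 3 was in 57.14% of vehicle and 46.88% of DFO members and in 8.397% and 5.566% of other cells. Cells with 2 or more of the 3 numbered 37 and 30 in the libraries, of which 15 and 10 were members.

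The name neutrophil-monocyte committed cells is thus borne out in part. Ms4a3, Clec12a, Cebpa, Prtn3 and Ccr2 were higher in the set, basophil transcripts were higher too, Cd34 was in nearly all members, and S100a8 was in 1. The 12 measured monocyte and dendritic genes summed to 395.9 CPM in vehicle members and 417.8 CPM in other vehicle cells. In the DFO library they summed to 383 and 472.8 CPM, so their summed level was not higher in the set. Gene by gene, of the 7 at 5 CPM or more 4 were above 0 and 2 below 0 in both libraries. Their median differences were 0.41 (vehicle) and 0.35 (DFO). Of the 8 measured mast and basophil genes, 4 were at 0 over the vehicle members and 2 over the DFO members. The list's summed level ran from 0 to 895.3 CPM among vehicle members (median 33.4) and from 0 to 1081.2 CPM among DFO members (median 0). Its part in the other results was not tested.

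Markers of 3 further cell types were read as summed levels. The lymphoid list was at 190.5 CPM in vehicle members and 100.1 CPM in other vehicle cells, and at 163.9 and 67.65 CPM in the DFO library. Nkg7, a granule protein of killer lymphocytes, carried nearly all of it, at 190.5 and 162 CPM in the members, and 2 of the 3 measured lymphoid genes were at 0 over the vehicle members and 1 over the DFO members. Nkg7 was also among the primary granule genes above, so the lymphoid level is not separate from that list. The 2 measured eosinophil genes summed to 5.678 and 2.366 CPM in the vehicle library and to 5.619 and 1.569 CPM in the DFO library, mostly Siglecf. Both levels were thus higher in the set, and the part of these cell types in the other results was not tested. The summed level of the 15 megakaryocyte genes was 658 CPM in vehicle members and 2519.2 CPM in other vehicle cells, and 692.4 and 1388.6 CPM in the DFO library. Per member it ran from 143.2 to 6379.3 CPM in the vehicle set and from 0 to 8927.3 CPM in the DFO set. Cells with transcripts of both sexes numbered 3 and 9 among members, and 7 and 15 members exceeded 50000 UMIs. Members were 1.422% (0.2942 to 4.099) of the 211 vehicle cells with transcripts of both sexes. They were 2.687% (1.236 to 5.039) of the 335 such DFO cells, against 0.9744% of all DFO cells. With cells of both sexes or above 50000 UMIs removed, the shares of members became 1.139% (vehicle) and 0.8415% (DFO). The part of doublets in the set was not tested beyond these values, and 24 barcodes occurred in both libraries.

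Further genes among the 12 with the highest mean difference were BC035044, Ccl9, Anxa3, F630028O10Rik, Atp8b4 and Hk3. Ccl9, a chemokine of myeloid cells, was at 289.6 and 26.3 CPM in members and other cells of the vehicle library and at 226.6 and 24.6 CPM in the DFO library. Hk3, the hexokinase of myeloid cells, was in 79.59% and 79.17% of members and in 14.82% and 14.13% of other cells. Anxa3 (annexin A3) differed by 3.23 in each library.

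**Figure D3:**
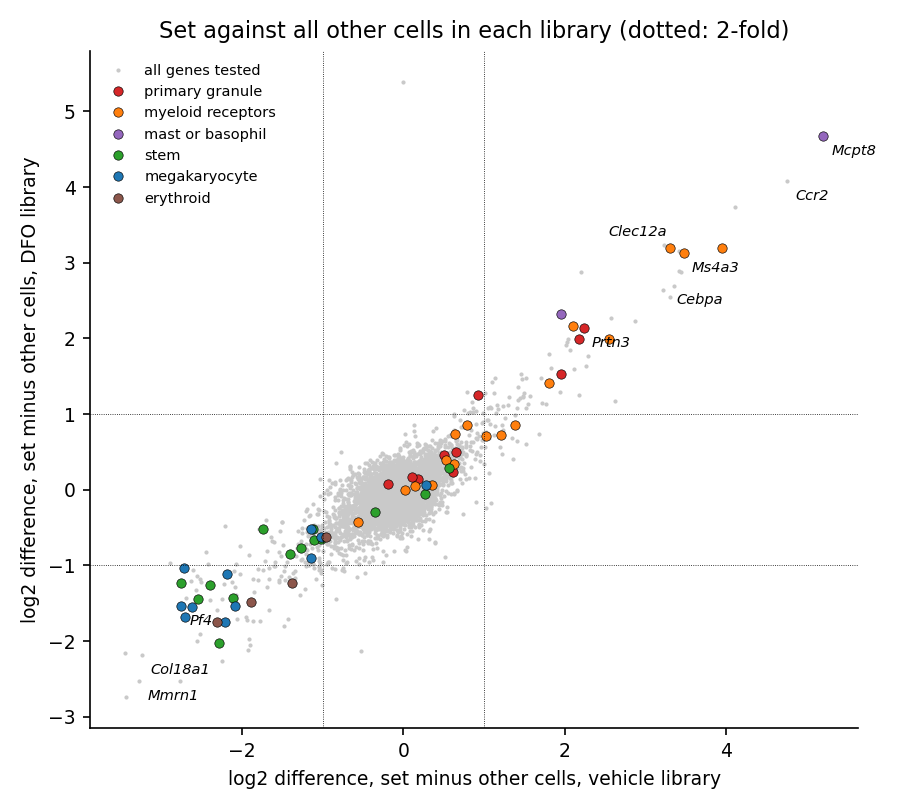
Log2 difference between the set and all other cells in the vehicle library (x axis) and the DFO library (y axis), 1 grey point a gene, coloured points for 6 gene lists, dotted lines at 2-fold. Mcpt8 (5.20 and 4.68) and Ccr2 (4.75 and 4.08) lie at the upper right, and most megakaryocyte, erythroid and stem genes at the lower left.

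Of 18 stem cell genes 7 were lower in the set and none higher, among them Ly6a (Sca-1), Slamf1 (CD150), Mycn, Sult1a1, Esam and Vwf. Slamf1 was in 3 of 98 and 6 of 96 members and in 26.75% and 22.19% of other cells. Esam, a cell adhesion molecule, was at 4.73 and 32.3 CPM in members and other cells of the vehicle library and at 11.9 and 34.0 CPM in the DFO library. Vwf (von Willebrand factor) was in 0 of 98 vehicle members and in 10.8% of other vehicle cells, and in 2 of 96 DFO members (2.083%) and 7.237% of other DFO cells. Of the 18 genes, 16 were below 0 in both libraries, with medians of -1.43 and -0.72. Hoxa9 (0.27 and -0.06), a homeobox factor of progenitors, and Ifitm1 (0.56 and 0.29) were not.

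Of 12 megakaryocyte genes 7 were lower and none higher. Pf4, platelet factor 4, was at 216.1 and 1462.6 CPM in members and other cells of the vehicle library and at 204.8 and 596.6 CPM in the DFO library. Gp9, a subunit of a platelet adhesion receptor, differed by -2.08 and -1.54. Of 6 erythroid genes 5 were lower, among them Gata1 (-2.31 and -1.75), the erythroid and megakaryocyte transcription factor, and Epor (-2.28 and -1.03), the erythropoietin receptor. The 8 genes with the lowest mean difference were 2610528A11Rik, Mmrn1 (multimerin, a platelet protein), Ehd3, Col18a1, Samd14, Nupr1, Podxl and Lpl (lipoprotein lipase). Each of these was in at most 8.333% of the members of a library.

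Lists outside the lineages did not separate the set. None of the genes of heme and iron (22 genes at 5 CPM or more), protein folding in the endoplasmic reticulum (20), S phase (20), G2/M (20), MYC targets (20), the mitochondrial genome (13), glycolysis and hypoxia (24) or cholesterol synthesis (21) was higher or lower. Their median differences lay between -0.0989 and 0.0996 in either library.

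Detection of the lineage genes also varied with the amount of granule transcript, here with all cells thinned to 10000 molecules. Ms4a3 was in 13.32% of vehicle cells with none of the 3 rule genes, in 20.11% of those with 1, and in 33.33%, 56.25% and 77.78% of members with 2 to 4, 5 to 19 and 20 to 99 molecules. The DFO shares in the same order were 9.65%, 23.5%, 29.03%, 57.78% and 53.33%. Cebpa was in 5.714% of vehicle cells with none, 25.57% with 1, and 44.44%, 34.38% and 50% of the member classes. Cells with 1 rule gene thus lay between members and cells with none for both genes.

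Mcpt8 went from 0.177% and 0.1342% of vehicle and DFO cells with none of the rule genes to 25% and 26.67% of members with 20 to 99 molecules. Prtn3 was in 64.57% and 62.46% of cells with none and in 100% of members with 5 to 99 molecules. Gata1 was in 17.04% and 10.72% of cells with none, in 5.172% and 4.439% of those with 1, and in 0 of 32 and 0 of 45 members with 5 to 19. Members thus had the myeloid and basophil transcripts more often than cells with none, and those with 5 to 19 molecules had Gata1 less often. Among the member classes the shares did not always rise, as for Cebpa in the vehicle library and Ms4a3 in the DFO library. The intervals of the member classes were wide.

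**Figure D4:**
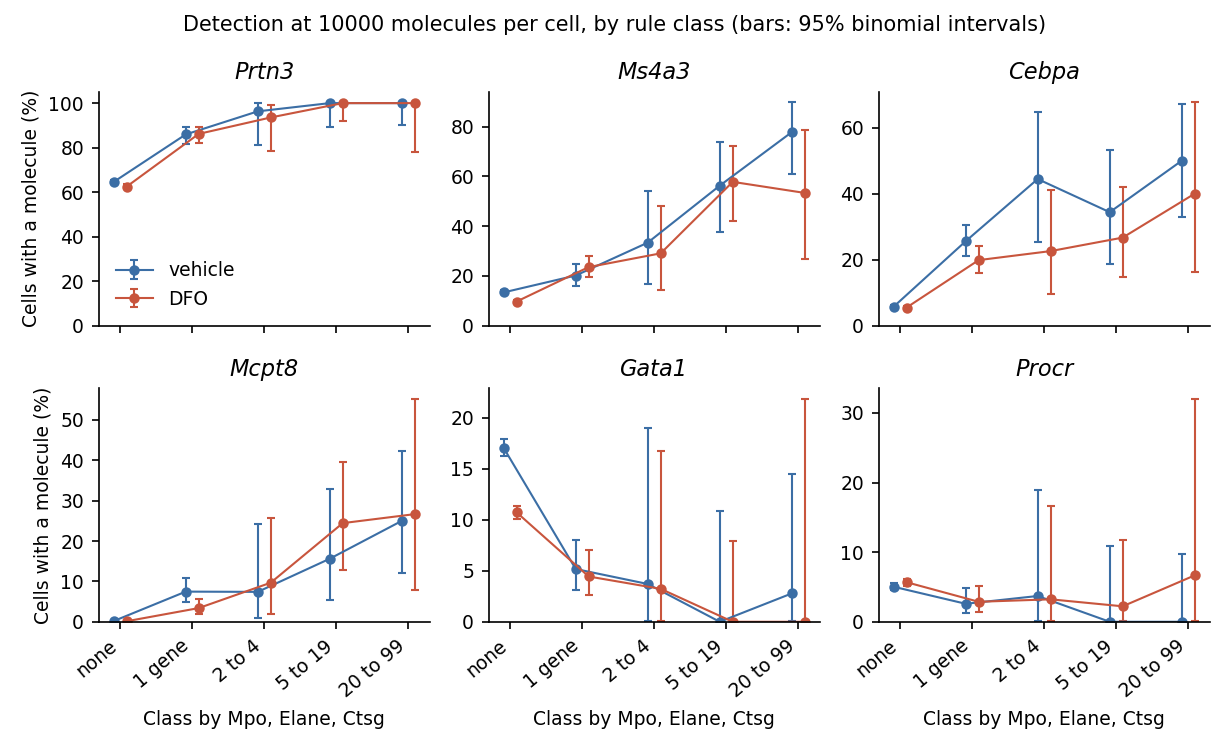
Percent of cells with a molecule of 6 genes (y axis, scales differ) after thinning to 10000 molecules, in cells with none or 1 of Mpo, Elane and Ctsg and in members by summed molecules (x axis), with 95% Clopper-Pearson intervals. Prtn3, Ms4a3, Cebpa and Mcpt8 are detected more often in members than in cells with none, and the Gata1 and Procr intervals of the member classes are wide.

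Inside the set, DFO was compared with vehicle over the 96 and 98 members, whose molecules summed to 3203389 and 3170034. Of 5576 genes at 20 CPM or more, 61 (1.09%) were at least 1.5-fold higher in DFO members and 44 (0.789%) at least 1.5-fold lower. With median-of-ratios scaling in place of totals these numbers were 39 and 59, so the split by direction turned with the scaling. Over the same genes in all other cells 0 were higher and 6 lower by 1.5-fold. The differences had an SD of 0.236 in the set and 0.109 in the other cells, and a gene at 20 CPM rested on about 64 molecules in the set.

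The 2 highest genes, S100a8 and Elane, came from 1 cell. All 134 S100a8 molecules and 379 of the 404 Elane molecules of the DFO set lay in it. This cell had 22470 UMIs, a male call, 202 Mpo, 211 Ctsg and 229 Prtn3 molecules, and none of Cd34. Without members of 100 or more summed molecules, the Elane difference was 0.33 in place of 3.65. S100a8, a calcium-binding protein of neutrophils and monocytes, was at 0 in the other members, and no fold is given.

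Of the other higher genes, the stem cell gene Ly6a led. It was at 11.7 CPM (8.22 to 16.1) in vehicle members and 47.1 CPM (39.9 to 55.3) in DFO members, a log2 difference of 1.93, with 1.03 among female and 0.74 among male members. Ly6a had 37 molecules in 23 vehicle cells and 151 in 37 DFO cells, of which 2 DFO cells held 28 and 27. In all other cells Ly6a differed by 0.40, from 84.8 to 111.9 CPM.

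Of 14 stem cell genes at 5 CPM or more in the set, the minimum used for all lists here, 12 were above 0 and 7 at least 1.5-fold higher in DFO members, with a median of 0.56 against 0.06 in other cells. The median was 0.50 with equal shares of the member classes and 0.07 with thinned cells. Of all 8945 genes at that minimum, 4.16% were at least 1.5-fold higher and 2.29% at least 1.5-fold lower. Besides Ly6a, Esam differed by 1.17. Ifitm1 (-0.18) and Hoxa9 (-0.17) were below 0. The higher median of the stem cell genes in DFO members was thus largely lost on thinning, where the set itself is smaller. The summed level of the list's 20 measured genes was lower in DFO members, at 2154.3 CPM against 2269.1 CPM in vehicle members. Ifitm1, which was below 0, made most of this sum. It stood at 1781.6 CPM in the DFO members other than the cell with the most granule molecules.

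Further genes among the 10 highest were Bex4 (1.04), Cyb5r1 (0.91), Myl10 (0.88), Bex1 (0.86) and Itgb3 (0.84). Myl10, a myosin light chain, rested on the most molecules, 444 in vehicle and 829 in DFO members. Itgb3, an integrin of platelets, was below 0 in the other cells (-0.45). Bex1 was below 0 among male members (-0.39).

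Ccr2 and Tyrobp were among the 10 lowest genes. Ccr2 had 80.1 CPM in the vehicle set against 35.6 CPM in the DFO set and was in 59 and 35 members, a difference of -1.15, with -0.48 in other cells. Tyrobp, the adaptor of activating myeloid receptors, was at 115.1 CPM (103.6 to 127.6) and 56.5 CPM (48.6 to 65.4), a difference of -1.01 and of -0.28 with thinned cells. The counting intervals of the 2 libraries did not overlap for either gene.

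Others among the 10 lowest were Cst7 (cystatin F, -1.03), Dok3 (-0.88), Wdr74 (-0.84), Eng (endoglin, -0.82), Scin (-0.82), Cd52 (-0.80) and Milr1 (-0.79). All 10 were also below 0 outside the set, at -0.64 for Cst7 and -0.41 for Cd52. Of the 20 receptors and other membrane molecules at 5 CPM or more 5 were at least 1.5-fold lower and 0 higher, with a median of -0.20 against 0.03 in other cells. Cebpa was at 75.7 and 45.9 CPM, a difference of -0.71. The DFO set also held fewer granule-rich cells, and with equal shares of the member classes Ccr2 differed by -0.96 and Cebpa by -0.48.

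Mpo, Ctsg and Prtn3 lay below 0 by less than 1.5-fold. Mpo had 352.4 CPM in the vehicle set and 285.6 CPM in the DFO set, Ctsg 336.3 and 263.5 CPM and Prtn3 736.9 and 642.1 CPM, differences of -0.30, -0.35 and -0.20. Without members of 100 or more summed molecules Mpo differed by -0.53 and Ctsg by -0.60, and with equal shares of the member classes by 0.34 and 0.28. Both settings act on classes cut by the molecules of these same genes, so these values are a description. With thinned cells Mpo differed by 0.33 and Ctsg by 0.25, and among male members by 0.40 and 0.80, so their direction turned with the setting. Ms4a3 differed by -0.67, and by 0.41 among male members. Clec12a differed by -0.09, by -0.59 without members of 100 or more molecules and by 0.87 with thinned cells. Of the 12 primary granule genes 1 was 1.5-fold higher (Igsf6, 0.63, and -0.15 without members of 100 or more molecules) and 1 lower (Cst7), with a median of -0.11.

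DFO binds iron, so the genes of heme and iron were read as a group. Of 22 at 5 CPM or more, 1 was at least 1.5-fold higher (Slc25a38, a mitochondrial glycine carrier, 0.98, from 2.84 to 6.56 CPM) and 0 were lower, with a median of -0.04 against -0.02 in other cells. Tfrc, the transferrin receptor, was at 62.8 CPM (54.4 to 72.1) and 69.9 CPM (61.1 to 79.7), a difference of 0.15 within overlapping intervals, and differed by 0.23 in other cells. Of 24 genes of glycolysis and hypoxia 0 passed 1.5-fold, and their median was -0.14 against -0.15. Of 13 mitochondrial transcripts mt-Nd3 (0.62) passed it, with 0.55 in other cells.

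In all other cells Pf4 was at 1462.6 CPM (vehicle) and 596.6 CPM (DFO), a difference of -1.29, and in the set at 216.1 and 204.8 CPM, a difference of -0.08. In each library 1 member held most of it: 346 of 685 molecules in a vehicle cell and 394 of 656 in a DFO cell. Without these 2 cells the set stood at 109.8 CPM (98.5 to 122.2) and 83.5 CPM (73.7 to 94.2), a difference of -0.39. Pf4 differed by -1.23 among female members, by -2.61 among male members and by -1.75 with thinned cells. The vehicle cell of the pair had 83552 UMIs and a female call, and the DFO cell had 63737 UMIs and transcripts of both sexes. The value among female members therefore keeps the vehicle cell and leaves out the DFO cell. These were the 2 members that also met the megakaryocyte reference.

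**Figure D5:**
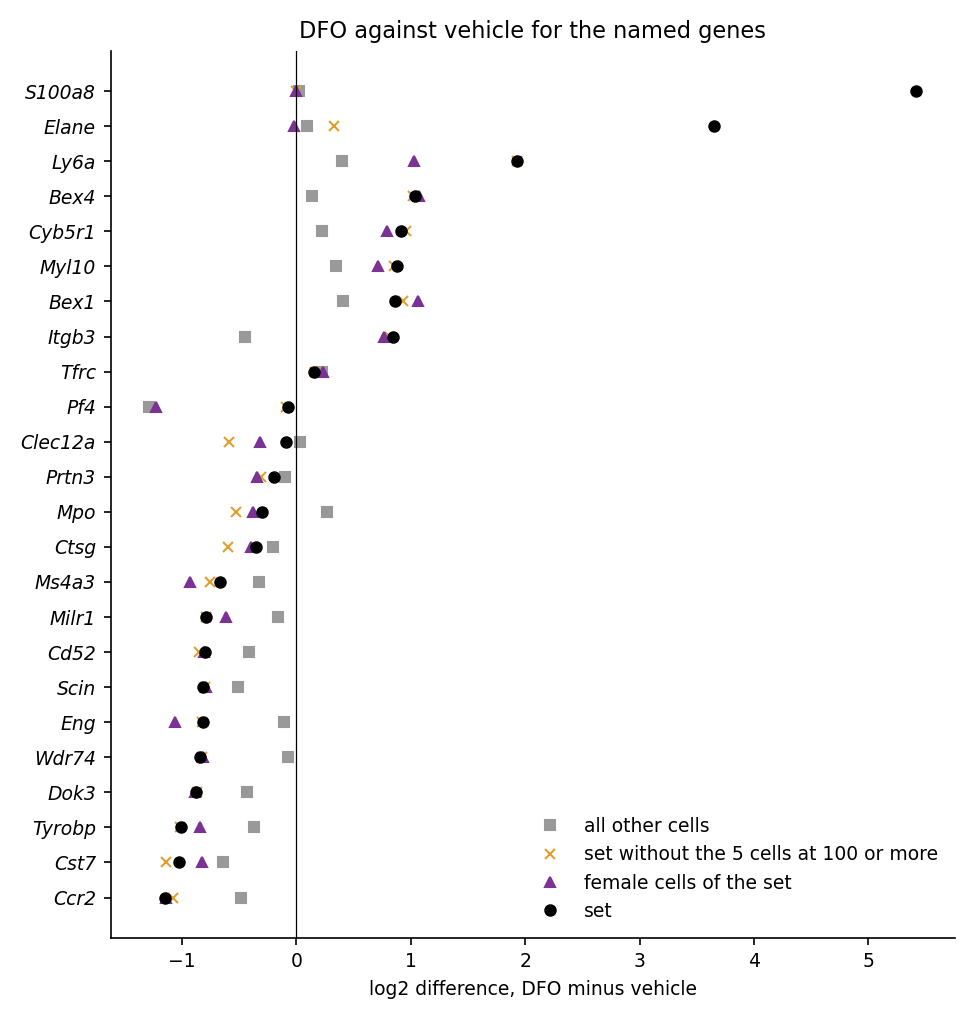
Log2 difference of DFO against vehicle (x axis) for the named genes, highest at the top, in the set (black), in all other cells (grey), in the set without the 5 cells of 100 or more summed molecules (crosses) and in the female members (triangles). S100a8 and Elane lose their difference without those cells, while Ly6a and Ccr2 keep it.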

How the data were processed

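The deposited values were natural log values per gene and cell, 1 table for each of the 2 libraries; per the submitters' processing notes FastQC 0.11.9, Trim Galore 0.6.5 and Cell Ranger 3.0.2 were used with build mm10. The sources used here name neither a cell filter nor a normalization tool. The values, as deposited, have the form ln(1 + constant × molecules), with a constant for each cell. With the smallest value of a cell taken as 1 molecule, they returned whole molecules within 0.05 for 100% of values above 0. Back-transformed, they summed to 26907.8 to 27408 per vehicle cell and 27324.1 to 27408 per DFO cell. Libraries held 260938938 (vehicle) and 284326017 (DFO) molecules over 14366 genes, with medians of 27805.5 and 27114 per cell. Genes left out of the tables were not analysed here.

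Molecules were summed over cells and scaled to CPM, and differences are log2 with 1 CPM added; with 1 library a group no test was possible. Thinning drew 10000 molecules per cell without replacement. No doublets were removed, and a setting without cells of both sexes or above 50000 UMIs was run. Some items are not reported here. Named genes were the highest and lowest genes, the fixed granule and marker genes, and the extremes of each list. The members and lists were chosen with earlier results of these data known. Scripts were tested on simulated data. Python 3.11.15, numpy 2.4.6, scipy 1.17.1, pandas 2.3.3 and matplotlib 3.10.9 were used.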

Additional observations from a re-analysis of the deposited data

How the results depend on the processing

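No paired analysis was possible because each group was 1 library, and leaving out a replicate was not possible for the same reason. The share of members (1.125% vehicle, 0.9744% DFO) became 0.7299% and 0.4778% with thinned cells, 0.1723% and 0.1218% with all 3 genes detected, and 0.8153% and 0.6293% with at least 5 summed molecules. The share with 20 or more summed molecules was 0.6735% (vehicle) and 0.2476% (DFO) among female cells. Among male cells it was 0.1084% and 0.09186%, on 3 cells each. With thinned cells and the limit at 5 the DFO share was 0.3397%. The 65 genes higher in the set became 30 with 10 CPM added and 26 with a minimum of 50 CPM. The numbers of genes higher and lower in DFO members (61 and 44) became 655 and 552 with thinned cells, 853 and 611 with all 3 genes detected, 116 and 81 with at least 5 molecules, 12 and 11 with 10 CPM added, 8 and 13 at 50 CPM, 814 and 459 at 1 CPM, 39 and 59 with median-of-ratios scaling, 114 and 88 in female cells, and 780 and 800 in male cells. Settings that leave fewer cells or admit lower genes gave the larger numbers. Over 12 settings the 24 named differences gave 288 values. Among differences past 1.5-fold 7 values changed sign, and among smaller ones 23 did (Clec12a 7, Mpo 5, Ctsg 4, Prtn3 4, Pf4 2, Tfrc 1). The 7 were Elane in female cells (-0.0212), Bex1 (-0.388) and Ms4a3 (0.414) in male cells, Bex1 with thinned cells (-0.201) and with all 3 genes (-0.503), and Cd52 (0.0191) and Milr1 (0.0964) with all 3 genes; the cause was not tested. The male sets were 10 and 16 cells and the sets with all 3 genes 15 and 12.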
